A study of Rattus norvegicus with 18 samples.

Results

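The genes described here were 10 genes of the Polycomb and DNA methylation machinery, *Ezh2*, *Ezh1*, *Eed*, *Suz12*, *Dnmt1*, *Dnmt3a*, *Dnmt3b*, *Uhrf1*, *Hells* and *Tet2*, of the 32882 genes in each of 3 tables of rat T cell RNA. Each was found by its gene name and matched 1 row per table. They were selected on their family with the changes between knockout (KO) and control cells in these same tables in view, so their changes are given as a description, without p values. The levels in control cells are a description too.

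Polycomb repressive complex 2 (PRC2) methylates histone H3 on a lysine and keeps genes silent through cell division. Its catalytic subunit is EZH2 or EZH1, and EED and SUZ12 are the core subunits that the enzyme needs. DNA methylation is copied onto new DNA strands by DNMT1, which UHRF1 guides to freshly replicated DNA and which the remodeller HELLS helps to reach packed chromatin. DNMT3A and DNMT3B set new methyl groups, and TET2 oxidises them as a step toward removal. In activated T cells these proteins are known for holding lineage choices in place while the cells divide, and EZH2 and DNMT1 are known to rise with proliferation.

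The cells were CD4+ T-MBP cells, a T cell line reactive to myelin basic protein (MBP), restimulated with MBP and transferred into Lewis rats, where such cells cause experimental autoimmune encephalomyelitis. They were sorted on day 3 after transfer from the spinal cord parenchyma or the spleen. KO cells were made with Cas9 and a guide against *Ets1*, which encodes a transcription factor, or *Grk2*, which encodes a kinase of G protein-coupled receptors, and carried green fluorescent protein. Control cells had a non-targeting (NT) guide and carried blue fluorescent protein, so the colour differed between KO and control in all 3 comparisons. The paper states that cycles of restimulation and expansion were repeated ahead of some experiments. Whether the groups shared 1 culture is not known here. The 6 groups of 3 libraries formed 3 pairs, each with its own controls: *Ets1*-KO and NT cells sorted from the parenchyma, *Ets1*-KO and NT cells sorted from spleen, and *Grk2*-KO and NT cells sorted from spleen. The KO cells were a sorted pool of edited cells, not a clone. Nothing in the sample labels says which libraries came from 1 animal, so the error measures a spread between libraries, which may be technical in part. The SE of a fitted change is not that of the gene's own pairs alone. It is drawn toward the spread of all genes at a like level, and in the parenchyma it is that common spread.

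Between 898092 and 2248258 reads were counted on genes in each library. In the spleen *Ets1* experiment the KO libraries held between 1909862 and 2248258 reads and their controls between 898092 and 1213485, so depth moved with genotype there, and its part in the results was not tested. The third *Ets1*-KO library from the spleen stood apart from the other 2, with a chi-square per degree of freedom of 8.95 and 9.23 against 1.48 to 4.60 for the other 16 pairs of libraries within a group, and with 21.0% of its reads on mitochondrially encoded genes against 14.1% to 14.9%. *Grk2* fell in the *Grk2*-KO cells, from 166, 166 and 142 normalized counts in the controls to 53.3, 64.2 and 87.3 (log2 fold change −1.22 ± 0.13 SE, adjusted p = 1.76e-12, limma). *Ets1* mRNA lay between 2302 and 2573 in parenchymal controls and between 2342 and 2682 in *Ets1*-KO cells, and in the spleen between 1965 and 2227 and between 1763 and 2370. The kit reads transcripts at their 3′ ends and cannot tell whether the guide's site was edited, so this level is no check of the *Ets1* knockout. The paper reports that its single KO lines were checked for KO efficiency before use, and its source data include an ETS1 protein blot of NT and KO cells. Those data were not used here. The 8 T cell markers tested for identity were all detected in every group, at a summed level between 2300 and 3089 RPM, which are reads on a gene per 1000000 reads on all genes of that library. Summed B cell markers lay between 1.36 and 9.89, myeloid markers between 0 and 45.4 and markers of central nervous system cells between 0 and 11.1.

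Promoter sequences are shown for *Ezh2* and *Dnmt1*, the genes on which the results below turn, and for *Suz12*, whose level followed that of *Dnmt1* most closely among the members. They are the 250 bases before the annotated start (RefSeq, GRCr8), 5′ to 3′ on the strand of the gene. Capitals mark matches to the E2F-type letters TTTCCCGC, TTTGGCGC, TTTCGCGC or TTTGCCGC and to the CCAAT box (CCAAT), on either strand. The *Ezh2* window lies at chr4:77687184-77687433 (minus strand), the *Dnmt1* window at chr8:27762842-27763091 (minus strand) and the *Suz12* window at chr10:65464719-65464968 (plus strand).

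Ezh2: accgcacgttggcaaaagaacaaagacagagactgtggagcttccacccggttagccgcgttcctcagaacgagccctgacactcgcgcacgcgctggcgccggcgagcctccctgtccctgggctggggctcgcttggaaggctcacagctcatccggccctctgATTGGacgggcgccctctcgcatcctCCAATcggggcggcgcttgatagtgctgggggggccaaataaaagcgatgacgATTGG
Dnmt1: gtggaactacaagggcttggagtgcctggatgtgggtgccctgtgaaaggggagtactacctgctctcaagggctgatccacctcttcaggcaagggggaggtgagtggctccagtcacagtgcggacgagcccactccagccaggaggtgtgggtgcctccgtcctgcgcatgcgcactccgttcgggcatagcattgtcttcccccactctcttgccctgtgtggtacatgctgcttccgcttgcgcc
Suz12: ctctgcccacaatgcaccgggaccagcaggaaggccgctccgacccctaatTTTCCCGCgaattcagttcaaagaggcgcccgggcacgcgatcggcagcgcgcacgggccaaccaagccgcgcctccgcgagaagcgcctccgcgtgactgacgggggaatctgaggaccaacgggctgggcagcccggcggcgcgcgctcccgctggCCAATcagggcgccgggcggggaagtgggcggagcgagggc

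For *Ezh2* and *Dnmt1* the E2F-type letters lay just after the start, at the 10th and the 26th base, and 24 bases around each are given (chr4:77687159-77687182 and chr8:27762801-27762824).

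Ezh2 site: ctgctgcgTTTGGCGCtcggtccg
Dnmt1 site: ttccgcgcGCGCGAAAaagccggg

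E2F factors switch on genes at the entry into S phase, and ETS1 binds sequences around CCGGAAGT. Of the 10 members, 8 had 1 or more windows of 300 bases (250 before and 50 after the start), 10 windows in all since *Uhrf1* had 3. *Ezh1* and *Dnmt3b* had none. E2F-type letters were in the windows of *Ezh2*, *Dnmt1*, *Suz12*, *Hells* and the third window of *Uhrf1*, and in 2.14% of the 33469 windows of all genes. These member windows had 17 to 38 CG pairs and 59.7% to 71.3% G or C, beside medians of 7 and 51.7% over all windows. The E2F-type letters each hold a CG pair, and the share over all windows was not matched for this. CCGGAAGT was found on either strand only in the window of *Hells*, 55 bases before its start, and in 3.81% of all windows. CCAAT was in the windows of *Ezh2* (3 matches), *Dnmt1* (2, both after the start), *Suz12*, *Eed* and *Uhrf1*, and in 37.5% of all windows. The 250 bases printed for *Dnmt1* hold no match to any of these letters. In the printed sequences no match overlaps another. A match is a description of the sequence and not evidence of binding.

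*Ezh2* was higher in *Ets1*-KO T-MBP cells than in their controls in the parenchyma. The gene (ENSRNOG00000006048, chromosome 4, 77284403 to 77347011 in Rnor_6.0, minus strand) had 444, 458 and 473 normalized counts in the controls and 636, 717 and 667 in the *Ets1*-KO cells, where a normalized count is the reads on a gene divided by the size factor of the library. All 3 KO libraries lay above all 3 controls, and the control libraries lay close together. The mean was 1.47-fold higher in KO cells (458 ± 14.5 against 673 ± 40.8, SD, n = 3 each), and the fitted log2 fold change was 0.55 ± 0.09 (SE). The change was called, which here means an adjusted p under 0.05 in the limma fit over all genes of the table.

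In the spleen *Ezh2* lay the other way round. Its counts were 948, 725 and 956 in the controls and 747, 659 and 681 in the *Ets1*-KO cells, so the groups overlapped by 1 control library, although KO was lower in each of the 3 same-numbered pairs. The log2 fold change of −0.32 ± 0.11 was not called. In the *Grk2* experiment the counts were 567, 508 and 506 in the controls and 562, 614 and 532 in the KO cells, with overlapping groups and a log2 fold change of 0.11 ± 0.08 that was not called either.

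**Figure D1:**
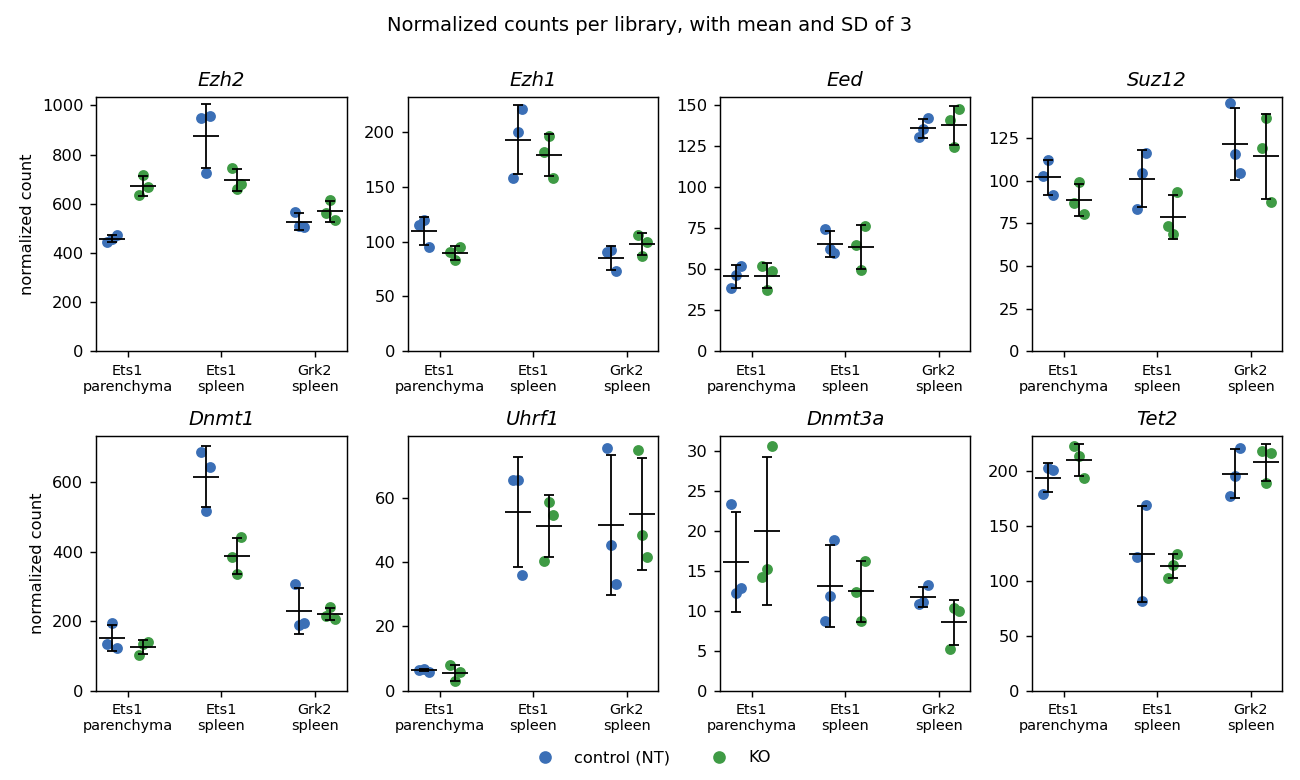
Normalized counts (y axes, starting at 0) of 8 members in every library, in 3 experiments (x axes), with control in blue, KO in green, and a bar with whiskers for the mean and SD of 3 libraries. The *Ezh2* libraries of *Ets1*-KO cells from the parenchyma (636 to 717) sit above their controls (444 to 473), and the *Dnmt1* libraries of *Ets1*-KO cells from the spleen (336 to 441) sit below theirs (519 to 686).

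*Ezh1*, which encodes the catalytic subunit that prevails in resting cells, was not called in any of the 3 comparisons. In the parenchyma the gene (ENSRNOG00000020336, chromosome 10, 89104026 to 89130339, minus strand) had 115, 119 and 95.3 normalized counts in the controls and 91.0, 82.9 and 95.2 in the *Ets1*-KO cells. The groups were apart by the width of the third pair only (95.3 against 95.2), and the log2 fold change of −0.29 ± 0.15 was not called. In the spleen the values overlapped, with 159, 200 and 221 against 182, 197 and 159 (−0.10 ± 0.14). For *Grk2*-KO they ranged from 72.9 to 92.0 in the controls and from 87.0 to 107 in KO cells (0.20 ± 0.14).

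The core subunits *Eed* and *Suz12* were not called in any of the 3 comparisons. *Eed* (ENSRNOG00000017509, chromosome 1, 154189259 to 154216340, minus strand) had 38.3, 46.1 and 52.1 counts in parenchymal controls and 51.6, 37.4 and 48.7 in *Ets1*-KO cells, for a log2 fold change of 0.01 ± 0.21. Its other log2 fold changes were −0.06 ± 0.19 in the spleen *Ets1* comparison and 0.02 ± 0.12 in the *Grk2* comparison. *Suz12* (ENSRNOG00000058663, chromosome 10, 67325346 to 67369668, plus strand) was lower in every *Ets1*-KO pair of both tissues but with overlapping groups. It had 103, 112 and 91.4 counts against 86.9, 99.1 and 80.5 in the parenchyma (−0.20 ± 0.15) and 83.1, 104 and 116 against 73.3, 68.8 and 93.0 in the spleen (−0.36 ± 0.16). In the *Grk2* experiment its log2 fold change was −0.10 ± 0.13, with 1 pair higher and 2 lower.

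*Dnmt1* was the 1 member called in *Ets1*-KO cells from the spleen, where it was lower. The gene (ENSRNOG00000039859, chromosome 8, 21922514 to 21968495, minus strand) had 686, 519 and 644 normalized counts in the controls and 385, 336 and 441 in the KO cells, and the highest KO library lay below the lowest control. The control mean was 1.59-fold the KO mean (616 ± 87.1 against 387 ± 52.4, SD, n = 3 each), and the log2 fold change of −0.67 ± 0.11 was called. Without the pair that holds the library that stood apart the log2 fold change was −0.73, still called, and without pair 1 it was −0.58 and not called.

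In the parenchyma *Dnmt1* had 135, 195 and 124 counts in the controls and 102, 133 and 141 in *Ets1*-KO cells. The groups overlapped, 2 pairs were lower and 1 higher, and the log2 fold change of −0.25 ± 0.13 was not called. In the *Grk2* experiment the first control library, with 307, stood above the other 2 at 190 and 193, and the KO libraries lay between them at 215, 240 and 207 (−0.03 ± 0.10). Its sign there depended on the pair left out, from −0.21 to 0.22.

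*Uhrf1*, the partner that brings DNMT1 to new DNA, was not called in either spleen comparison. The gene (ENSRNOG00000048411, chromosome 9, 10738221 to 10757954, minus strand) had 65.6, 65.6 and 36.0 counts in the controls of the *Ets1* experiment and 40.4, 58.9 and 55.0 in the KO cells (log2 fold change −0.08 ± 0.23, not called). In the *Grk2* experiment it had 75.9, 45.5 and 33.4 against 75.1, 48.7 and 41.8 (0.13 ± 0.18, not called). In the parenchyma it had 6.54, 6.58 and 5.90 counts in the controls and 8.09, 3.03 and 5.67 in the KO cells, from 3 to 8 reads per library, and was under the count minimum of 10. *Hells* (ENSRNOG00000047104, chromosome 1, 257766690 to 257949183, plus strand) was listed at 0 in all 18 libraries. A count of 0 allows up to 1.33 to 3.34 RPM in single libraries, taking 3 reads as the upper limit for counting error only. Whether the gene model used for counting covers the 3′ end of its transcript was not tested, so the 0 is a listed value and is not shown to be the level of the transcript.

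The de novo enzymes were close to the limit of detection. *Dnmt3a* (ENSRNOG00000026649, chromosome 6, 28235694 to 28340577, plus strand) had between 5.24 and 30.6 counts per library and passed the minimum in all 3 tables, in the *Grk2* table with a mean of 10.1. Its log2 fold changes were 0.27 ± 0.32 and −0.05 ± 0.39 in the *Ets1* comparisons and −0.46 ± 0.39 in the *Grk2* comparison, none of them called. In the last, the KO libraries (5.24, 10.4 and 10.0) lay below the controls (10.8, 11.1 and 13.2), on 6 to 13 reads per library. *Dnmt3b* (ENSRNOG00000010625, chromosome 3, 149131784 to 149208786, plus strand) had 12 reads in all, in 9 of 18 libraries and at most 2 in any, and was not tested.

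*Tet2*, whose product acts against DNA methylation, was not called in any comparison. The gene (ENSRNOG00000023579, chromosome 2, 238720834 to 238803024, minus strand) had between 178 and 202 counts in controls and between 194 and 222 in KO cells of the parenchyma (0.11 ± 0.11). Spleen values were 121, 81.8 and 169 against 102, 114 and 124 for *Ets1* (−0.07 ± 0.17), and 177, 195 and 221 against 218, 189 and 217 for *Grk2* (0.08 ± 0.10). The groups overlapped each time.

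**Figure D2:**
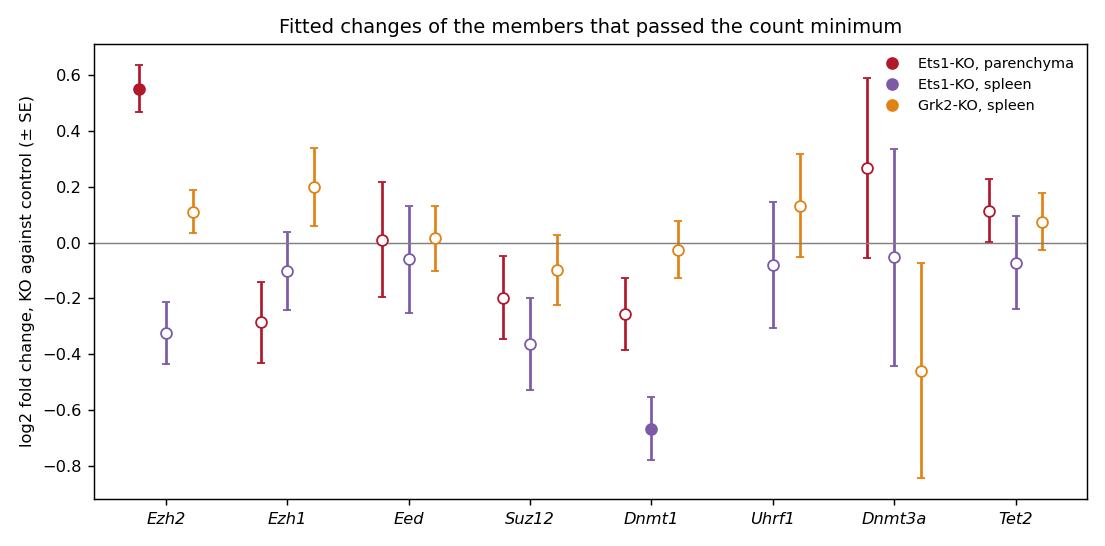
Fitted log2 fold change of KO against control (y axis, ± SE, n = 3 pairs) of the 8 members that passed the count minimum in at least 1 table (x axis), coloured by comparison, with filled points for called changes. The 2 filled points are *Ezh2* in the parenchyma (0.55) and *Dnmt1* in the spleen (−0.67) for *Ets1*-KO, and *Uhrf1* has no parenchymal point.

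In the parenchyma 1 of 7 members tested was called, beside 5.23% of all 7002 genes tested. The groups of 3 were apart for 2 of the 7 members (*Ezh2* and *Ezh1*) beside 18.4% of all genes. In the spleen *Ets1* comparison 1 of 8 was called beside 2.22% of 6979 genes, and 1 of 8 had groups apart beside 16.9%. In the *Grk2* comparison limma called 0 of 8 beside 1.56% of 6985 genes, with 0 of the 8 at an unadjusted p under 0.05 and 0 called by edgeR or DESeq2, and 1 of 8 (*Dnmt3a*) had groups apart beside 12.2%. Because the members were chosen by these comparisons, nothing is read from these shares.

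Of the 7 members tested in both tissues, *Ezh2* had the largest difference between tissues in its change with *Ets1* editing. Its log2 fold change in the parenchyma minus that in the spleen was 0.88 ± 0.14 (SE, 3 ratios per tissue), and it was the 1 member of 7 called for a tissue difference, beside 2.1% of the 6520 genes compared. For *Dnmt1* the same difference was 0.41 ± 0.17, which was not called, so its change in the spleen was not shown to differ from that in the parenchyma. The other 5 members differed by −0.18 to 0.32.

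Genes of the cell cycle moved beside these members, and their part in the results was not tested. In *Ets1*-KO cells from the parenchyma 7 of 10 tested mitosis genes fell and none rose, with a median log2 fold change of −1.15 beside −0.03 over all genes. With a replicate left out 5 to 6 of the 10 were called, with DESeq2 3 and without a trend in eBayes 0. *Mki67*, a marker of cycling cells, fell by 1.15 and *Top2a*, a topoisomerase of dividing cells, fell by 1.16 on the log2 scale (adjusted p = 1.01e-15 and 7.64e-16, limma). *Ezh2* was thus higher in the cells in which the mitosis genes were lower. Of 17 tested S phase genes 1 fell there (*Lig1*, a DNA ligase, which was named after its value was seen), with a median of −0.06. The list had 27 genes in the data, and those under the count minimum were not tested. At these low counts all of them except *Gins1* and *Gins2* had lower means in KO cells. *Mcm5* of the replicative helicase had a log2 fold change of −0.59 ± 0.28 (adjusted p = 0.249, limma) and *Pcna*, the sliding clamp, 0.01 ± 0.17 (adjusted p = 0.994, limma).

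In *Ets1*-KO cells from the spleen both lists were lower together with *Dnmt1*. Of 25 tested S phase genes 8 fell and none rose (median −0.48), and of 16 mitosis genes 11 fell and none rose (median −0.60), beside a median of 0.00 over all genes. Without replicate 1 the genes called were 0 of 24 and 0 of 16 (medians −0.53 and −0.54), and without a trend in eBayes 0 of 25 and 0 of 16. DESeq2 called 3 and 7, and limma without the replicate block 5 and 8. *Mcm5* fell by 0.65, *Mki67* by 0.67 and *Top2a* by 0.63 (adjusted p = 0.0444, 0.00208 and 0.00328, limma), beside the −0.67 of *Dnmt1*. *Pcna*, at −0.39 ± 0.13, was not called (adjusted p = 0.133, limma). In *Grk2*-KO cells 6 of 16 mitosis genes rose and none fell (median 0.36), with *Top2a* up by 0.36 (adjusted p = 0.000222, limma). Limma called 0 of 25 S phase genes, with 3 at an unadjusted p under 0.05 (median 0.11), beside 728 of all 6985 genes. *Mcm5* (−0.09 ± 0.14) and *Pcna* (0.16 ± 0.09) were not called. The mitosis genes called there were 0 of 16 without replicate 2 (median 0.26), 3 without replicate 3 and 4 without replicate 1, and 0 without the replicate block, without the trend and with DESeq2. In bulk RNA, fewer cycling cells and less RNA per cycling cell cannot be told apart.

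**Figure D3:**
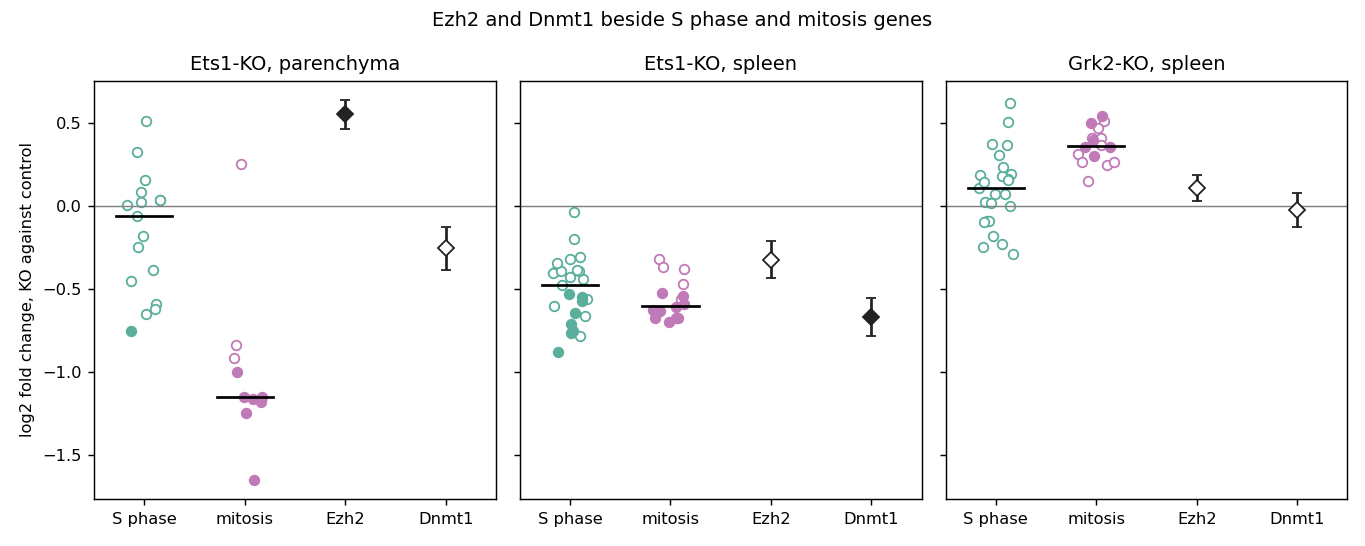
Log2 fold change of KO against control (y axis) of the tested S phase and mitosis genes (circles, line at the median) and of *Ezh2* and *Dnmt1* (diamonds, ± SE), in 3 panels for the 3 comparisons, filled where called and spread sideways at random for view. *Ezh2* (0.55) lies above the mitosis genes (median −1.15) in the parenchyma, and *Dnmt1* (−0.67) lies among the S phase and mitosis genes (medians −0.48 and −0.60) in the spleen.

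Markers of other cells are given beside *Ezh2* and *Dnmt1*. The 8 myeloid markers summed to between 16.8 and 28.5 RPM in parenchymal controls and between 20.5 and 45.4 in *Ets1*-KO cells, with none of the 8 at 0 in either group. The 7 markers of central nervous system cells summed to between 1.34 and 11.1 in controls and between 3.54 and 9.36 in KO cells, with *Aqp4* and *P2ry12* at 0 in both. In the spleen *Ets1* experiment the 7 B cell markers summed to between 3.33 and 9.89 in controls and between 2.09 and 7.59 in KO cells, and *Blk*, *Cd22*, *Cd79a*, *Cd79b* and *Pax5* were at 0 in both. The part of these cells in the results was not tested.

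No gene of the wider machinery around the members was called by limma in the 3 comparisons with the count minimum. Of 53 genes in 5 lists, for PRC2 partners, PRC1, the removal of Polycomb marks, readers and partners of DNA methylation, and DNA demethylation, 40 were tested in the parenchyma, 36 in the spleen *Ets1* comparison and 40 in the *Grk2* comparison. Limma called 0 in each, with 2, 7 and 3 at an unadjusted p under 0.05. Over all genes tested, 1186 of 7002, 984 of 6979 and 728 of 6985 were at an unadjusted p under 0.05. DESeq2 called 0 in each, and edgeR called 0, 2 and 0. The median log2 fold changes were −0.03, −0.09 and −0.01, beside −0.03, 0.00 and 0.02 over all genes.

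By role, the 6 tested PRC2 partners had a median log2 fold change of 0.08 in the parenchyma (range −0.10 to 0.26) and −0.31 in the *Ets1* spleen comparison (−0.83 to 0.72), and the 7 tested in the *Grk2* table −0.01 (−0.23 to 0.40). For PRC1, which ubiquitinates histones and compacts chromatin at Polycomb targets, the medians were −0.03, 0.04 and −0.02 over 15, 12 and 14 genes. The enzymes that remove Polycomb marks had medians of −0.10, −0.17 and −0.14 over 6, 5 and 6 genes. Readers and partners of DNA methylation had medians of 0.00, −0.11 and 0.05 over 8, 8 and 9 genes, and DNA demethylation genes −0.13, −0.06 and 0.06 over 5, 5 and 4.

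The 2 genes that edgeR called in the *Ets1* spleen comparison are named after their values were seen. *Rbbp7*, a histone chaperone in PRC2, had 370 ± 13.8 counts in controls and 281 ± 52.7 in KO cells (SD, n = 3 each, log2 fold change −0.41 ± 0.12, limma adjusted p = 0.0738). *Cdca7*, a partner of HELLS, had 40.0 ± 11.9 and 20.0 ± 3.87 (−0.94 ± 0.29, limma adjusted p = 0.0929). In both, all 3 KO libraries lay below all 3 controls, and limma called neither among the genes that passed the count minimum. The groups of 3 were apart for 16.9% of all genes in this comparison. *Phf1*, a PRC2 partner also named after its value was seen, lay apart the other way (0.72 ± 0.26, limma adjusted p = 0.191).

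Control cells were compared between tissues in RPM, a scale that does not depend on the separate scaling of the tables. Its total includes mitochondrially encoded genes, which took 25.4% to 27.4% of reads in parenchymal controls. They took 17.3% to 18.6% in spleen controls of the *Ets1* experiment and 22.3% to 22.6% in those of the *Grk2* experiment. Tissue went with the table, so tissue and experiment cannot be told apart except through the 2 sets of spleen controls. The share of all genes whose control groups lay apart was not counted. A lack of overlap is thus given as a description and not as a trait of the members. *Uhrf1* showed the widest gap, with between 4.18 and 4.68 RPM in the parenchyma against 25.6 to 50.8 in spleen controls of the *Ets1* experiment and 25.1 to 59.4 in those of the *Grk2* experiment. The spleen means (41.9 ± 14.2 and 39.9 ± 17.6, SD, n = 3 each) were 9.40-fold and 8.94-fold the parenchymal mean (4.46 ± 0.26), and the 2 spleen groups overlapped.

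*Dnmt1* was ordered from 106 ± 24.5 in the parenchyma through 177 ± 54.4 in spleen controls of the *Grk2* experiment to 459 ± 57.7 in those of the *Ets1* experiment. No 2 of the 3 groups overlapped. The spleen groups differed from each other by 2.59-fold, more than the 1.67-fold between the parenchyma and the nearer of them, so the size of the gap to the parenchyma rested on the experiment. *Ezh2* had the same order, with 322 ± 10.7, 405 ± 33.6 and 652 ± 80.3, again with no overlap. *Ezh2* in *Ets1*-KO cells from the parenchyma, at 476 RPM (453 to 502), lay above its controls and above spleen controls of the *Grk2* experiment (380 to 444). In RPM it lay below spleen controls of the *Ets1* experiment (561 to 714). In totals without mitochondrially encoded reads these KO cells and those controls overlap.

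For *Eed* the order was parenchyma (32.0 ± 4.74), spleen of the *Ets1* experiment (48.9 ± 6.88) and spleen of the *Grk2* experiment (104 ± 2.38), with no overlap between groups. *Ezh1* did not differ beyond its spread between the parenchyma (77.3 ± 8.48) and spleen of the *Grk2* experiment (65.7 ± 9.45), and was highest in spleen of the *Ets1* experiment (144 ± 21.1). *Suz12* lay at 71.7 ± 6.32, 75.3 ± 11.0 and 93.7 ± 18.1 in the parenchyma and the spleen of the *Ets1* and *Grk2* experiments. The spleen of the *Ets1* experiment overlapped with both other groups, and the parenchyma and the spleen of the *Grk2* experiment lay apart in RPM. In totals without mitochondrially encoded reads the parenchyma and that spleen group overlap. *Dnmt3a* overlapped in all groups, at 11.4 ± 4.62, 9.70 ± 3.42 and 8.98 ± 0.79. *Tet2* was lowest in spleen of the *Ets1* experiment (91.7 ± 28.5) and overlapped between the parenchyma (136 ± 7.53) and spleen of the *Grk2* experiment (152 ± 13.8).

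Cell cycle genes differed between the same control groups, and their part in the levels was not tested. *Mki67* lay at 136 ± 17.0 RPM in the parenchyma, 437 ± 69.4 in spleen of the *Grk2* experiment and 1192 ± 145 in spleen of the *Ets1* experiment, in the same order as *Ezh2* and *Dnmt1*. *Top2a* had the same order, with 137 ± 31.8, 843 ± 135 and 1815 ± 100.3. *Pcna* was higher in spleen of the *Grk2* experiment (268 ± 73.1) than in that of the *Ets1* experiment (161 ± 23.3) and lowest in the parenchyma (50.4 ± 12.3).

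**Figure D4:**
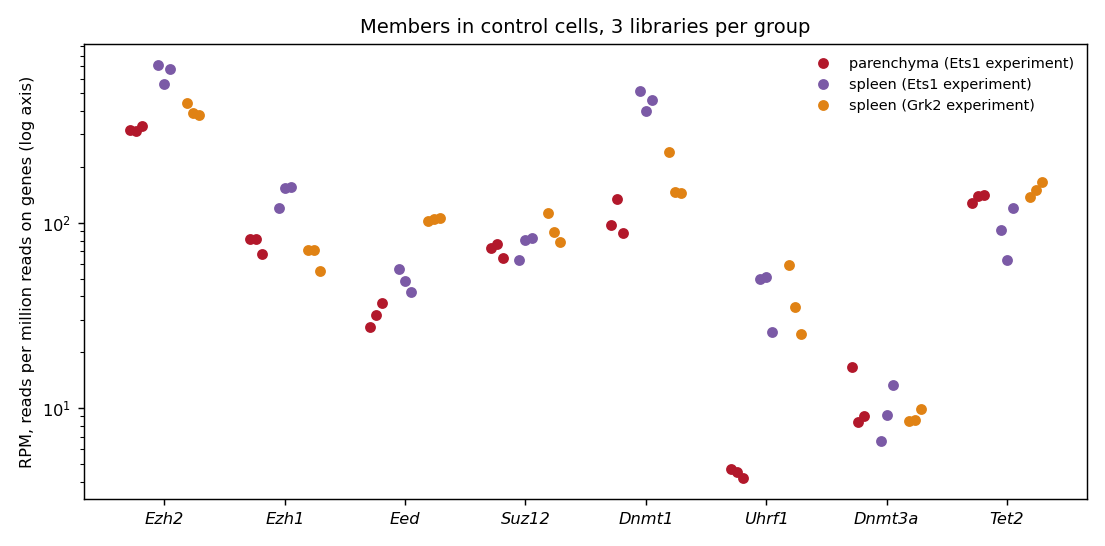
RPM (y axis, logarithmic) of 8 members (x axis) in the 3 libraries of each control group, coloured by tissue and experiment. *Uhrf1* lies at 4.18 to 4.68 in the parenchyma and at 25.1 or above in both spleen groups. The 2 spleen groups lie apart from each other for *Ezh2*, *Ezh1*, *Eed*, *Dnmt1* and *Tet2*, and overlap for *Suz12*, *Dnmt3a* and *Uhrf1*.

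Likeness was measured across the 18 libraries, with each table centred on its own mean. The centring keeps the difference between KO and control, so r carries the changes given above and is no separate support for them. Depth and cell cycle genes also varied between the libraries, so r is a description. The genes most like each of the 7 members that passed the minimum in all tables were taken from 6206 genes, 3 for each member. For *Dnmt1* they were *Rrm1*, the large subunit of ribonucleotide reductase (Pearson r = 0.88), *Hirip3* (0.85) and *Mcm3* of the replicative helicase (0.85), of which *Rrm1* and *Mcm3* are in the S phase list. The median r of *Dnmt1* with the 17 S phase genes was 0.62 and with the 10 mitosis genes 0.60, beside −0.01 with all genes. For *Suz12* these medians were 0.48 and 0.56, and its leading genes were *G2e3* (0.84), *Srsf4* (0.80) and *Ssr1* (0.79). *Suz12* and *Dnmt1* were the most alike of all pairs of members (r = 0.67).

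*Ezh2* stood otherwise, with a median r of 0.22 with S phase genes and −0.24 with mitosis genes. Its leading genes were *Rangap1*, an activator of the GTPase Ran (0.84), *Sf3a3*, a splicing factor (0.83), and *Prf1*, which encodes perforin (0.82). Its r with *Dnmt1* was 0.29. *Tet2* was most like *Phf8*, a histone demethylase (0.87), *Slc4a1ap* (0.87) and *Zmym2* (0.83). Leading genes of *Ezh1* included *Rac2* (0.86) and *Lysmd3* (0.79), those of *Eed* included *Naa35* (0.81) and *Stxbp3* (0.77), and those of *Dnmt3a* were *Tmem175* (0.83), *Sh3gl1* (0.77) and *Bbs4* (0.70).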

How the data were processed

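RNA of rat T-MBP cells was sequenced with the Collibri 3′ mRNA kit in 18 libraries, 3 per group, and groups were taken from the sample labels. Per the labels and the methods, the authors aligned reads to Rnor_6.0 with STAR 2.7.2b, counted them per gene with HTSeq 1.0.0 and divided the counts by DESeq2 (2.11.40.7) size factors of the poscounts kind, separately in each table. These normalized counts, the deposited signal values, were used here. All positive values (100%) were whole multiples of 1 step per library (tolerance 0.01), which gave the reads back. The authors' tables of fold changes and p-values, enrichment tables and 8 per-sample columns of human values were left out.

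In each table, genes whose normalized counts averaged 10 or more across its 6 libraries entered the test. The log2 of the value plus 1 was fitted with limma 3.58.1 (lmFit, and eBayes with a trend) in R 4.3.3, two-sided, with Benjamini-Hochberg adjustment over all genes tested, a threshold of 0.05 and replicate number as a block. A fold change on this scale understates that of low genes. The trend draws each SE toward the spread of all genes at a like level. In the parenchyma the prior degrees of freedom were infinite, so each SE there is that common spread, and small adjusted p values rest on it. The SD of the pairs there was 0.04 for *Suz12* and 0.38 for *Dnmt1*, beside SEs of 0.15 and 0.13. The block follows the study's correction per animal and the co-transfer of KO and control cells. Same-numbered libraries correlated at −0.00 to 0.18 in their deviations from the group means, with 5 of 9 pairs over 0.1, and other numbers at −0.16 to 0.05. The tissue difference was fitted on log2 ratios of same-numbered libraries. Levels in control cells are reads per 1000000 reads on genes (RPM), recomputed here from the recovered reads. edgeR 4.0.16 and DESeq2 1.42.0 on the recovered reads were alternatives. The fits of KO against control by limma with and without a trend, edgeR and DESeq2 were tested on simulated data. The fit of the tissue difference and the other variants were not. Pairs of libraries within a group were compared by chi-square, and no library was found to be a repeat of another.

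The members and gene lists were chosen with earlier results of these data known. The genes named were the members, the edited genes, the 3 genes most like each member over 18 libraries (2 of them are not reported here), called genes of the pathway lists, and *Mcm5*, *Pcna*, *Mki67* and *Top2a*. *Lig1*, *Gins1*, *Gins2*, *Rbbp7*, *Cdca7*, *Phf1*, *Asxl1* and *Gadd45a* were named after their values were seen.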

Additional observations from a re-analysis of the deposited data

Results flagged for a closer look

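The change of *Ezh2* with *Ets1* editing differed between tissues, with a log2 fold change in the parenchyma minus that in the spleen of 0.88 (SE 0.14, higher in 3 of 3 parenchymal pairs and lower in 3 of 3 spleen pairs). It is listed because the fit of the difference over all genes called it. *Ezh2* was chosen with both comparisons in view, so the value is a description. Tissue goes with table here, and a difference between tissues cannot be told apart from one between the 2 experiments.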

How the results depend on the processing

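Under the alternatives run, all 434 log2 fold changes of members and ratios between tissues moved by less than the spread between replicates. No called change reversed. Many of these values could not have moved that far, so their number is no measure of stability. Without the replicate block, without a trend in eBayes or with another count minimum, the log2 fold change stays the same. Leaving out a replicate cannot move the mean of 3 pairs by as much as their SD. Values that could have gone further came from other pseudocounts, normalizations and programs. Which changes were called did depend on the fit. Without a trend in eBayes the genes called fell from 366, 155 and 109 (parenchyma *Ets1*, spleen *Ets1*, spleen *Grk2*) to 3, 0 and 0, those that differed between tissues from 137 to 2, and the members called to 0 in the parenchyma, in the spleen and for the tissue difference. Without the replicate block the counts were 200, 71 and 19, and 47 for the tissue difference (this last added after seeing the data), while *Ezh2* in the parenchyma and *Dnmt1* in the spleen were still called, and the pairing changed no call of a member. DESeq2 with the block called 90, 48 and 9 genes and edgeR 238 in the spleen *Ets1* comparison. With no filter 212 and 242 genes were called in the *Ets1* comparisons, and with a minimum of 50 the *Grk2* count was 60. Quantile normalization called 2 members in the *Ets1* spleen comparison, *Ezh2* beside *Dnmt1*.

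Leaving out a replicate gave 163 to 277 genes in the parenchyma, 3 to 232 in the *Ets1* spleen comparison (3 without replicate 1), 6 to 50 in the *Grk2* comparison (6 without replicate 2) and 28 to 112 for the tissue difference. The members called in the *Ets1* spleen comparison were then 0 to 2, 0 without replicate 1 and 2 (*Dnmt1* and *Ezh2*) without replicate 2. Pathway genes called in that comparison, 0 with all pairs, were 1 with no filter (*Rbbp7*), 2 with edgeR (*Rbbp7* and *Cdca7*) and 0 to 2 with a replicate left out (*Asxl1* without replicate 2, *Rbbp7* and *Cdca7* without replicate 3). They were 0 to 1 in the *Grk2* comparison (*Gadd45a*, without replicate 3) and 0 to 1 for the tissue difference (*Rbbp7*, without replicate 3). The cause of these changes was not tested. *Dnmt3b* in the 3 experiments and *Uhrf1* in the parenchyma were under the count minimum and were not tested.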
